A study of Rattus norvegicus with 9 samples.

Results

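This report describes 8 rat genes that regulate blood stem and progenitor cells in femurs after growth plate injury: Cd34, Kit, Flt3, Gata2, Tal1, Runx1, Myb and Meis1. They were chosen by gene name from the 31125 gene rows of the count table. All 8 had a row, and all 8 were among the 15936 genes that passed the low-count filter. The femurs came from male rats at day 7, with 3 libraries in each of 3 groups. GMTT rats had an injury of the distal femoral growth plate and a hydrogel called GMTT, which the series title describes as GelMa with TPGS and tea polyphenols. GPI rats had the same injury without the gel. Sham rats had sham surgery. The sources used here name no strain or age. Injured femurs with a gel lacking tea polyphenols were not analysed here, so the gel and its load cannot be told apart.

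Blood cells of the rat femur are made in its marrow, where stem cells divide slowly and progenitors divide fast. Cd34 is a surface sialomucin of progenitors and also of vascular endothelium and stromal cells. Kit and Flt3 are receptor tyrosine kinases, bound by stem cell factor (Kitlg) and by Flt3 ligand. Gata2, Tal1 and Runx1 are transcription factors needed to form blood stem cells. Tal1 continues to act in red cell and megakaryocyte precursors, and Gata2 in mast cells. Myb is a transcription factor of dividing progenitors, and Meis1 is a homeobox factor that works with Pbx and Hox proteins in stem cells. These roles are known mainly from mouse and human.

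Libraries held 15927429 to 19715997 counts. Marker lists were used to describe the tissue. Of 8 cartilage and bone genes, none was at 0 in any group, which does not test the femur label. Their summed level was 391 to 404 CPM in GMTT, 199 to 210 in GPI and 461 to 511 in Sham. CPM are counts scaled to library size and to a factor for each library, given below. As a share of all counts, these genes took 0.0513%, 0.0123% and 0.0620% in the same groups. The groups differed widely in other tissues. Of 10 skeletal muscle genes, the 8 with a row took 1.76% ± 0.0696 of counts in GMTT, 8.22% ± 0.209 in GPI and 0.183% ± 0.00745 in Sham. The 16 pan-leukocyte genes took 0.520% ± 0.0108, 0.00507% ± 0.0000713 and 0.463% ± 0.0105 in the same groups (SD, n = 3 each). All CPM here are scaled by the trimmed mean of M-values (TMM). The factors were 1.28 to 1.30 in GMTT, 0.600 to 0.604 in GPI and 1.28 to 1.29 in Sham. The median log2 fold change of all genes, GPI against Sham, was -0.19 with TMM, -1.28 with library sizes only and 5.22 when libraries were scaled to the pan-leukocyte genes. For GMTT against GPI these medians were 0.12, 1.22 and -5.46. Fewer blood-forming cells and less RNA per cell cannot be told apart in such bulk tissue. Whether the same piece of tissue was taken in all groups was not tested, and a difference in what was sampled cannot be told apart from the groups in any value for GPI.

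In the build of the files, mRatBN7.2, all 8 genes are annotated as protein coding. Cd34 lies on chromosome 13 (106480043 to 106499832, plus strand), Flt3 on chromosome 12 (7623930 to 7699474, plus), Gata2 on chromosome 4 (120658986 to 120667761, plus) and Tal1 on chromosome 5 (128587701 to 128600976, plus). Kit and Meis1 lie on the minus strand of chromosome 14 (32548877 to 32624652 and 93155419 to 93294265). Myb lies on chromosome 1 (15939761 to 15973057, minus) and Runx1 on chromosome 11 (31843764 to 32074542, minus). Values are for whole genes, not for single exons or transcripts.

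RefSeq promoters (build GRCr8) matched 7 of the 8 genes, all but Myb. The first listed promoter of each gene was used, and any other promoter of a gene was not searched. The 250 bases before the start were searched on both strands for 5 short motifs that the members' own proteins can bind. Promoters of 3 genes are shown because Cd34 was the member highest in GPI against Sham, while Tal1 and Flt3 were among the lowest. They are at chr13:109008536-109008785, chr5:133824214-133824463 and chr12:12659785-12660034, all on the plus strand, and capitals mark motif matches.
Cd34: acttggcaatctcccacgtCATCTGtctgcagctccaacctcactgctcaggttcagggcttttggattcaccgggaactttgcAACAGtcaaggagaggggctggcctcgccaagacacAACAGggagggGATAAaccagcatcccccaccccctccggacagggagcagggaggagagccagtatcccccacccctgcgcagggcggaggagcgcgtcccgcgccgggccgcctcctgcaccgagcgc
Tal1: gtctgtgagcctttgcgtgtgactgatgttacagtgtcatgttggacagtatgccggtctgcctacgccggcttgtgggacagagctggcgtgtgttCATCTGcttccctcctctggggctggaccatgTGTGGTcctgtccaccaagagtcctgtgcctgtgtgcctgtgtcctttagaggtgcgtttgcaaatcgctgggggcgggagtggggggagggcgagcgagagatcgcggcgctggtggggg
Flt3: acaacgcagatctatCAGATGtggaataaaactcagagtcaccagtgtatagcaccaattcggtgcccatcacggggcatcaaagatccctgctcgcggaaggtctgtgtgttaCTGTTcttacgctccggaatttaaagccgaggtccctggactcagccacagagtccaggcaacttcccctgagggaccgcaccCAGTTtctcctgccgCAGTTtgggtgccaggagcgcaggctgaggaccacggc
The Cd34 promoter held 1 GATAA (bound by GATA factors), 1 CAGNTG (an E-box, bound by Tal1 with its partners) and 2 AACNG (bound by Myb). The Tal1 promoter held 1 CAGNTG and 1 TGTGGT (bound by Runx1). The Flt3 promoter held 1 CAGNTG and 3 AACNG. Among the other promoters, Gata2 held 1 AACNG, Meis1 held 2 AACNG, Runx1 held 3 AACNG and 1 TGACAG (bound by Meis1), 2 of these overlapping, and Kit held none of the 5. These motifs are common: of 33469 rat promoters cut the same way, 23.5% held GATAA, 43.3% CAGNTG, 14.5% TGTGGT, 15.8% TGACAG and 75.2% AACNG. A match is a description of letters, not of binding.

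The first comparison asked how injury at the growth plate was followed by changes in these genes. With TMM scaling, Cd34 and Gata2 were higher in GPI femurs than in Sham, and Kit, Flt3, Tal1, Runx1, Myb and Meis1 were lower, of which Kit, Flt3, Runx1 and Meis1 turned higher when scaled to pan-leukocyte genes. The differences spanned a wide range, with Cd34 5.23-fold higher and Myb 409-fold lower. All 8 passed the test (2 higher, 6 lower), where 88.2% of all genes tested passed, 40.1% higher and 48.1% lower, so the count itself does not set these genes apart. The groups were free of overlap for all 8, beside 88.3% of all genes. With TMM the members' median log2 fold change was -1.64, beside -0.19 for all genes. Scaled by library sizes only, 1 member was higher and 7 were lower, with medians of -2.74 for the members and -1.28 for all genes. Scaled to pan-leukocyte genes 6 were higher and 2 lower. That scaling raised most genes, with a median of 5.22 for all genes, above the members' 3.77.

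Among the surface proteins, Cd34 stood at 17.3, 17.2 and 18.3 CPM in GMTT, 56.8, 58.9 and 55.0 in GPI and 9.88, 11.1 and 11.6 in Sham. The GPI libraries were the highest, the Sham libraries the lowest, and no groups overlapped. Cd34 was higher in GPI than in Sham by a log2 fold change of 2.39 ± 0.08 (SE; edgeR, adjusted p = 5.18e-24). Kit, the stem cell factor receptor, stood at 21.5, 21.0 and 19.6 CPM in GMTT, 5.84, 5.13 and 4.82 in GPI and 21.1, 21.3 and 21.2 in Sham. All GPI libraries lay below all others, and GMTT and Sham overlapped. Kit was 4.01-fold lower in GPI than in Sham (log2 SE 0.11; edgeR, adjusted p = 7.4e-18). Flt3, the receptor of early lymphoid and dendritic cell progenitors, stood at 15.7, 18.2 and 14.8 CPM in GMTT, 1.02, 0.756 and 0.193 in GPI and 11.3, 13.1 and 12.7 in Sham. The groups did not overlap, with GPI far below and GMTT a little above Sham. The GPI values rest on 12, 9 and 2 counts, 23 in all, beside 1118 in GMTT and 809 in Sham. Flt3 was 18.2-fold lower in GPI than in Sham (log2 fold change -4.19, SE 0.22; edgeR, adjusted p = 8.4e-18).

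Among the founding transcription factors, Gata2 stood at 23.5, 22.7 and 20.9 CPM in GMTT, 22.0, 27.6 and 25.8 in GPI and 21.3, 20.6 and 21.5 in Sham. GPI lay above Sham without overlap, by a narrow margin in its lowest library, and GMTT overlapped both. Gata2 was 1.19-fold higher in GPI than in Sham (log2 fold change 0.25, SE 0.08; edgeR, adjusted p = 0.00612). Without GPI library 2 this was no longer called (0.17; edgeR, adjusted p = 0.0799), and with library sizes only the direction turned (-0.84). Tal1 stood at 301, 297 and 306 CPM in GMTT, 7.45, 8.07 and 7.13 in GPI and 506, 512 and 515 in Sham. The groups were far apart, with little spread inside each. Tal1 was 67.5-fold lower in GPI than in Sham (log2 fold change -6.08, SE 0.07; edgeR, adjusted p = 7.29e-37). Runx1 stood at 25.2, 25.7 and 22.4 CPM in GMTT, 8.13, 9.41 and 9.54 in GPI and 21.1, 20.4 and 24.4 in Sham. GPI lay below both other groups, which overlapped each other, and Runx1 was 2.44-fold lower in GPI than in Sham (log2 fold change -1.29, SE 0.10; edgeR, adjusted p = 4.2e-13).

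Myb, the factor of dividing progenitors, stood at 116, 118 and 134 CPM in GMTT, 0.339, 0.168 and 0.674 in GPI and 160, 165 and 151 in Sham. In GPI it was close to absent from the libraries, with 4, 2 and 7 counts, beside 8481 in all in GMTT and 10366 in Sham. Its log2 fold change in GPI against Sham was -8.68 (SE 0.14; edgeR, adjusted p = 5.99e-32), and 1.07% of the genes tested had a lower one. Meis1, the homeobox factor, stood at 18.9, 18.8 and 20.2 CPM in GMTT, 8.97, 6.72 and 8.77 in GPI and 17.7, 18.1 and 17.8 in Sham. All 3 groups were free of overlap, GMTT and Sham by a narrow margin. Meis1 was 2.20-fold lower in GPI than in Sham (log2 fold change -1.14, SE 0.10; edgeR, adjusted p = 9.73e-12).

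**Figure D1:**
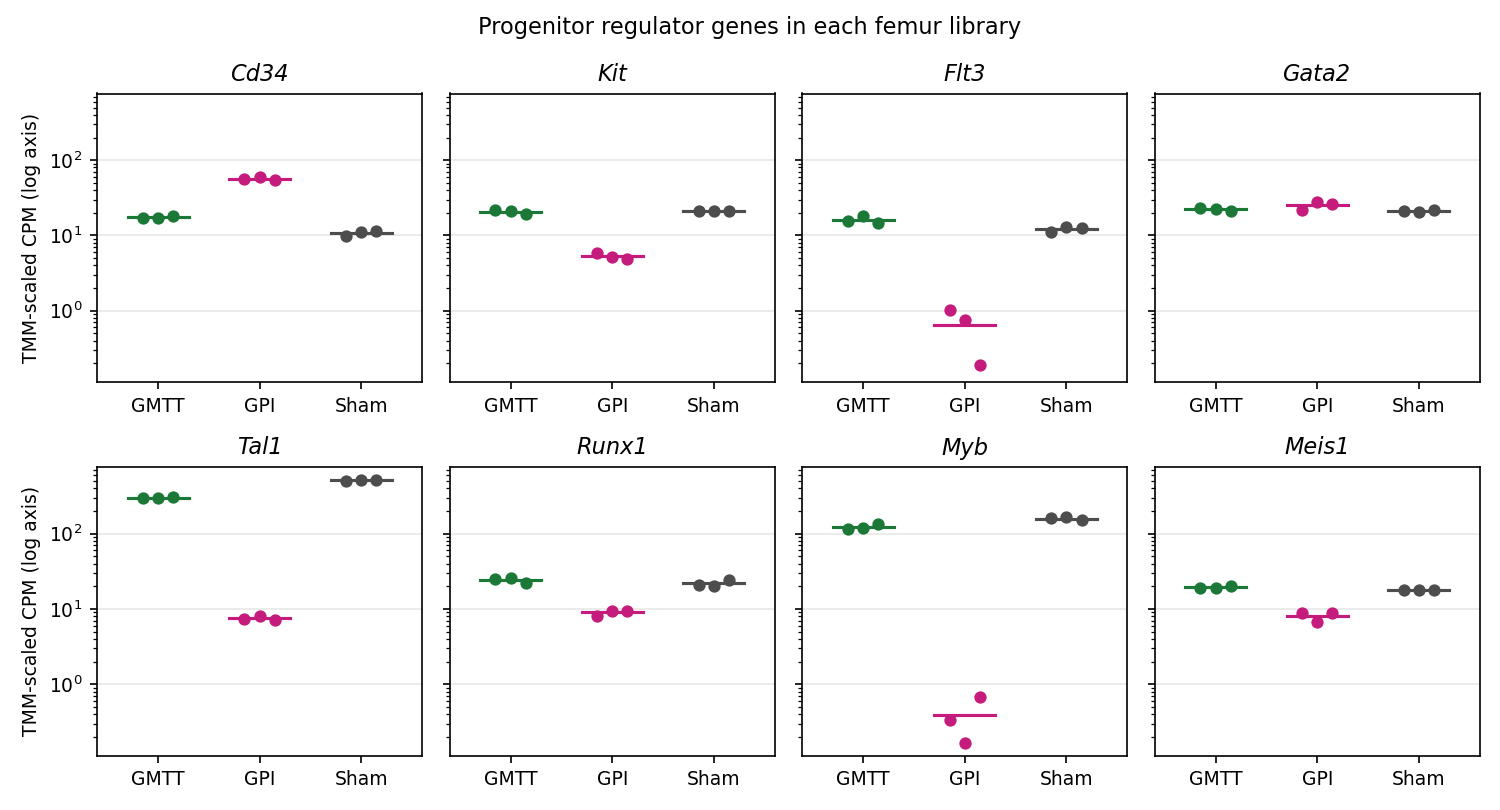
TMM-scaled CPM (log axis) of each gene in the 3 GMTT, 3 GPI and 3 Sham libraries, with a bar at each group mean. Myb, Tal1 and Flt3 stand lowest in GPI relative to Sham (Flt3 turns higher when scaled to pan-leukocyte genes), Cd34 is highest there at 55.0 to 58.9 CPM, and Gata2 lies between 20.6 and 27.6 CPM in all 9 libraries.

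The second comparison asked how femurs with the gel differed from femurs with injury alone. With TMM scaling, Kit, Flt3, Tal1, Runx1, Myb and Meis1 were higher in GMTT than in GPI and Cd34 was lower. All of the higher ones but Myb turned lower when scaled to pan-leukocyte genes. Of the 8 genes 7 passed the test, 6 higher and 1 lower, where 85.9% of all genes passed, 45.7% higher and 40.2% lower. The same 7 were free of overlap, beside 86.2% of all genes. With TMM the members' median log2 fold change was 1.70, beside 0.12 for all genes. Scaled to pan-leukocyte genes, 1 was higher and 7 were lower. That scaling lowered most genes, with a median of -5.46 for all genes and -3.87 for the members. Both this comparison and the first use the GPI libraries, so they are not independent.

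Cd34 averaged 17.6 ± 0.618 CPM in GMTT and 56.9 ± 1.95 in GPI (SD, n = 3 each), a log2 fold change of -1.69 (SE 0.07; edgeR, adjusted p = 1.18e-20). Kit averaged 20.7 ± 1.00 CPM in GMTT and 5.26 ± 0.526 in GPI, 3.92-fold higher in GMTT (log2 fold change 1.97, SE 0.11; edgeR, adjusted p = 1.35e-17). Flt3 averaged 16.2 ± 1.77 CPM in GMTT and 0.655 ± 0.421 in GPI, 23.8-fold higher in GMTT (log2 fold change 4.57, SE 0.21; edgeR, adjusted p = 2.07e-19). With TMM scaling both receptors were thus higher with the gel, and Cd34 was lower. Scaled to pan-leukocyte genes, both receptors were lower with the gel. Tal1 averaged 301 ± 4.32 CPM in GMTT and 7.55 ± 0.477 in GPI, 39.8-fold higher in GMTT (log2 fold change 5.32, SE 0.07; edgeR, adjusted p = 1.16e-34). Myb averaged 123 ± 10.0 CPM in GMTT and 0.394 ± 0.258 in GPI, 317-fold higher in GMTT (log2 fold change 8.31, SE 0.15; edgeR, adjusted p = 7.38e-31). Runx1 and Meis1 had smaller folds than Tal1 and Myb. Runx1 averaged 24.4 ± 1.76 CPM in GMTT and 9.02 ± 0.78 in GPI (log2 fold change 1.44, SE 0.10; edgeR, adjusted p = 1.79e-14). Meis1 averaged 19.3 ± 0.809 CPM in GMTT and 8.15 ± 1.24 in GPI, 2.37-fold higher in GMTT (log2 SE 0.10; edgeR, adjusted p = 8.2e-13).

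Gata2 did not pass in this comparison. It averaged 22.4 ± 1.33 CPM in GMTT and 25.2 ± 2.87 in GPI, a log2 fold change of -0.17 with a 95% interval of -0.34 to -0.00 (edgeR, adjusted p = 0.0566). The call turned on single libraries and on the scaling. Gata2 was called lower without GPI library 1 (-0.26; edgeR, adjusted p = 0.00819) or without GMTT library 1 (-0.20; edgeR, adjusted p = 0.048). It was also called lower with median-of-ratios scaling (-0.19; edgeR, adjusted p = 0.0303) and scaled to pan-leukocyte genes (-5.75; edgeR, adjusted p = 7.07e-36), and called higher with library sizes only (0.93; edgeR, adjusted p = 2.9e-12).

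The third comparison set femurs with injury and gel against Sham. In GMTT, Cd34 and Flt3 were higher and Tal1 and Myb lower than in Sham, all by less than 1 on the log2 scale, and Kit, Gata2, Runx1 and Meis1 did not pass. The 4 calls (2 higher, 2 lower) compare with 57.8% of all genes tested, 29.5% higher and 28.3% lower. With TMM the median log2 fold change of the members was 0.10, beside -0.00 for all genes. Scaled to pan-leukocyte genes, 1 was higher and 3 were lower, with medians of -0.06 for the members and -0.16 for all genes.

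Cd34 averaged 17.6 ± 0.618 CPM in GMTT and 10.9 ± 0.895 in Sham, 1.62-fold higher in GMTT (log2 fold change 0.69, SE 0.08; edgeR, adjusted p = 9.65e-09). Flt3 averaged 16.2 ± 1.77 CPM in GMTT and 12.4 ± 0.97 in Sham (log2 fold change 0.39, SE 0.10; edgeR, adjusted p = 0.00143). Flt3 was no longer called when scaled to pan-leukocyte genes (0.23; edgeR, adjusted p = 0.0502), nor was it on log2(FPKM + 0.1) (0.41; limma, adjusted p = 0.243). Tal1 averaged 301 ± 4.32 CPM in GMTT and 511 ± 4.18 in Sham, 1.69-fold lower in GMTT (log2 fold change -0.76, SE 0.04; edgeR, adjusted p = 3.64e-16). Here 4.95% of the genes tested had a lower fold change than Tal1. Myb averaged 123 ± 10.0 CPM in GMTT and 159 ± 7.00 in Sham, 1.29-fold lower in GMTT (log2 fold change -0.37, SE 0.06; edgeR, adjusted p = 2.02e-06). On log2(FPKM + 0.1) the Myb call was lost (-0.34; limma, adjusted p = 0.079).

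For the 4 genes without a call the intervals were narrow. Kit differed by -0.03 between GMTT and Sham on the log2 scale, with a 95% interval of -0.18 to 0.11 (edgeR, adjusted p = 0.702). Kit was called lower in GMTT when scaled to pan-leukocyte genes (-0.19; edgeR, adjusted p = 0.0289). The Gata2 difference was 0.08, from -0.07 to 0.24 (edgeR, adjusted p = 0.365), and the Meis1 difference was 0.11, from -0.05 to 0.27 (edgeR, adjusted p = 0.238). Meis1 still showed no overlap, as did the 4 called genes, 5 of 8 in all beside 61.7% of all genes. The Runx1 difference was 0.15, from -0.01 to 0.31 (edgeR, adjusted p = 0.0911). Runx1 was called without GMTT library 3 (0.22; edgeR, adjusted p = 0.018) or without Sham library 3 (0.23; edgeR, adjusted p = 0.0169), and on all libraries with median-of-ratios scaling (0.19; edgeR, adjusted p = 0.0384).

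**Figure D2:**
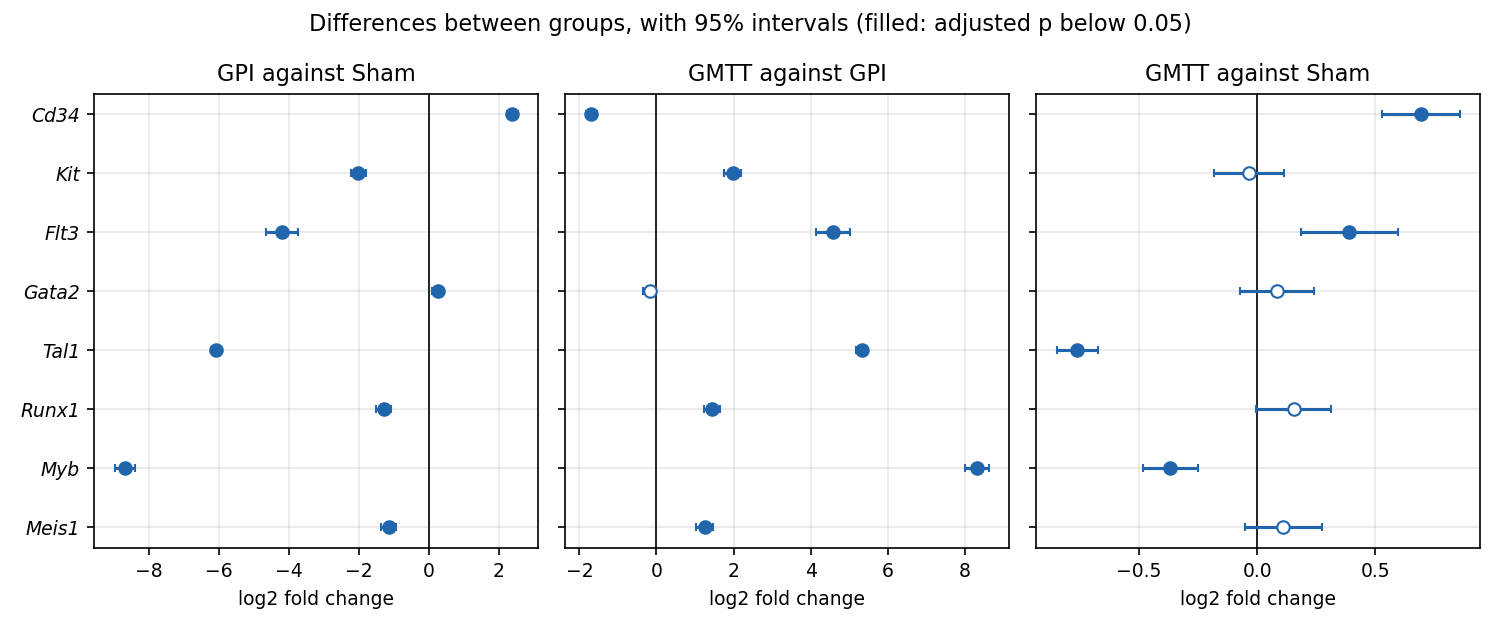
Log2 fold changes of the 8 genes in the 3 comparisons, with 95% intervals and filled points for adjusted p below 0.05. Values run from -8.68 to 2.39 in the first panel, from -1.69 to 8.31 in the second and from -0.76 to 0.69 in the third. Scaled to pan-leukocyte genes, directions turn for Kit, Flt3, Meis1 and Runx1 in both comparisons with GPI and for Tal1 in GMTT against GPI.

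Levels were compared between genes per gene length, on the deposited FPKM scale. In GMTT the order was Tal1 (70.1 ± 0.932 FPKM), Myb (18.1 ± 1.41), Runx1 (9.65 ± 0.718), Cd34 (9.62 ± 0.312), Gata2 (6.54 ± 0.41), Meis1 (5.48 ± 0.215), Kit (5.34 ± 0.277) and Flt3 (4.41 ± 0.482). Runx1 and Cd34 overlapped there, as did Meis1 and Kit. In GPI the order was Cd34 (31.1 ± 0.92 FPKM), Gata2 (7.35 ± 0.84), Runx1 (3.56 ± 0.317), Meis1 (2.32 ± 0.36), Tal1 (1.76 ± 0.103), Kit (1.36 ± 0.131), Flt3 (0.178 ± 0.114) and Myb (0.058 ± 0.0382), and the last pair overlapped. Cd34 thus led the levels in GPI and Tal1 did so in both other groups. In Sham the order was Tal1 (116 ± 1.09 FPKM), Myb (22.8 ± 1.09), Runx1 (8.49 ± 0.788), Gata2 (6.04 ± 0.113), Cd34 (5.82 ± 0.481), Kit (5.36 ± 0.0408), Meis1 (4.97 ± 0.0779) and Flt3 (3.29 ± 0.266). Gata2 and Cd34, and Cd34 and Kit, overlapped in Sham. Of the summed counts of the 8 genes, Tal1 held 55.3% ± 0.467 in GMTT, 6.67% ± 0.275 in GPI and 65.9% ± 0.453 in Sham. Cd34 held 3.23% ± 0.0542 in GMTT, 50.3% ± 1.12 in GPI and 1.40% ± 0.108 in Sham (SD, n = 3 each).

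Each gene was also set against 16 pan-leukocyte genes of the same library (Ptprc, Cd53, Laptm5 and others), which needs no scaling between libraries. Per 1000 such counts, Myb was lowest in GPI, with 30.6 ± 2.95 in GMTT, 5.16 ± 2.99 in GPI and 44.1 ± 3.07 in Sham. Tal1 had 75.0 ± 2.14 in GMTT, 90.2 ± 6.95 in GPI and 142 ± 3.57 in Sham. The Tal1 ratio in GPI thus lay between those of GMTT and Sham, without overlap. All other genes but Flt3 stood higher against leukocyte genes in GPI than in both other groups, without overlap. The share of all genes that did so is not given here. Scaled to these 16 genes, the median log2 fold change of all genes in GPI against Sham was 5.22. The log2 ratios of Cd34 (7.81) and Gata2 (5.67) rose by more than that. Those of Kit (3.41), Runx1 (4.14) and Meis1 (4.28) rose by less. Cd34 had 4.38 ± 0.219 in GMTT, 676 ± 33.7 in GPI and 3.02 ± 0.24 in Sham, and Gata2 had 5.56 ± 0.258, 299 ± 34.6 and 5.86 ± 0.0487 in those groups. Runx1 had 6.08 ± 0.351 in GMTT, 108 ± 8.70 in GPI and 6.09 ± 0.439 in Sham. For Meis1 these were 4.81 ± 0.274, 97.2 ± 14.04 and 4.96 ± 0.179, and for Kit 5.15 ± 0.182, 63.0 ± 6.88 and 5.89 ± 0.161. Flt3 had 4.03 ± 0.396 in GMTT, 8.35 ± 5.04 in GPI and 3.44 ± 0.306 in Sham, and its GPI libraries overlapped both other groups.

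With 3 libraries against 3, a 2-sided exact permutation test cannot give a p below 0.1. It gave exact p = 0.1 for every gene and comparison of these ratios except Flt3 in both comparisons with GPI (exact p = 0.4), Meis1 in GMTT against Sham (exact p = 0.5) and Runx1 in GMTT against Sham (exact p = 1). The denominators differed in depth, with 277500 pan-leukocyte counts in GMTT, 2869 in GPI and 235280 in Sham.

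**Figure D3:**
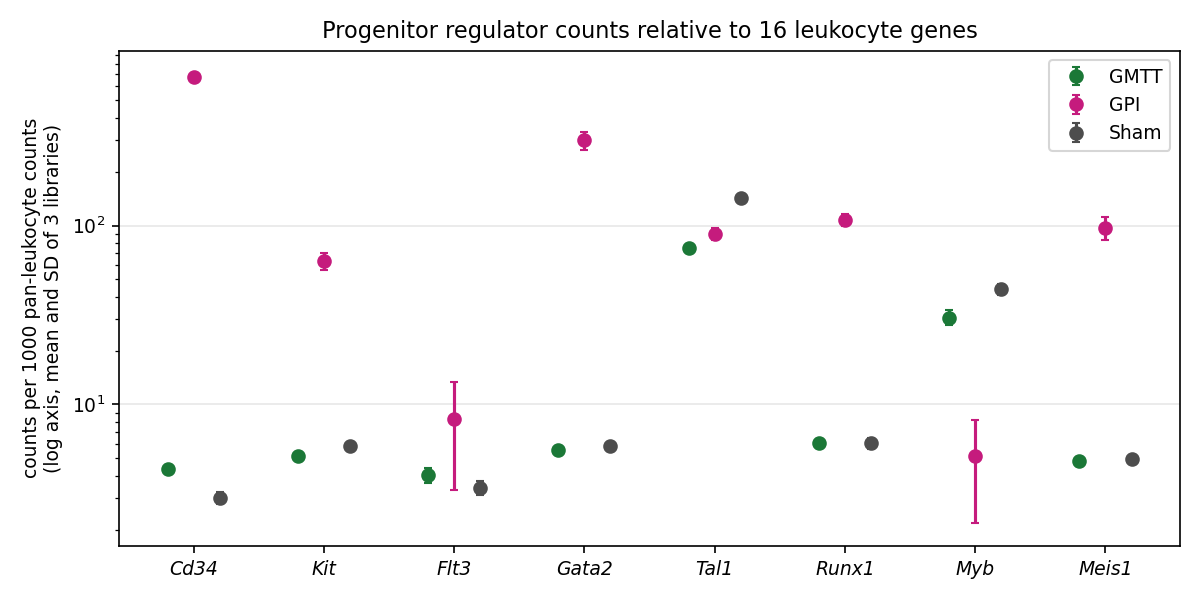
Counts of each gene per 1000 counts of 16 pan-leukocyte genes (log axis), as mean and SD of 3 libraries in GMTT, GPI and Sham. Cd34 reaches 676 in GPI against 3.02 in Sham, while Myb is lowest in GPI at 5.16 and Tal1 lies at 75.0 to 142 in all groups.

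Of the ligands, Kitlg, which encodes stem cell factor, had a row and Flt3lg could not be matched by symbol. Kitlg stood at 46.8, 49.3 and 54.4 CPM in GMTT, 123, 117 and 121 in GPI and 34.4, 39.9 and 36.6 in Sham. With TMM scaling it was highest in GPI without overlap, while its receptor Kit was lowest there. Against pan-leukocyte genes of the same library, the log2 ratio of Kit was higher in GPI than in Sham, by 3.41. For Kitlg the log2 fold change was 1.70 in GPI against Sham (SE 0.06; edgeR, adjusted p = 2.97e-22), -1.26 in GMTT against GPI (SE 0.06; edgeR, adjusted p = 5.55e-19) and 0.44 in GMTT against Sham (SE 0.06; edgeR, adjusted p = 5.04e-07). All 3 directions stayed under every scaling run, but with library sizes only the values for Kitlg were 0.61 in GPI against Sham and -0.16 in GMTT against GPI.

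Of 12 partners of the member transcription factors, all were called in GPI against Sham, 4 higher and 8 lower (2 and 10 with library sizes only, 10 and 1 scaled to pan-leukocyte genes). In the Tal1 complex, the bridging protein Lmo2 had a log2 fold change of -2.47, Ldb1 of -2.62, the E proteins Tcf3 of -3.24 and Tcf12 of 0.17, and the Tal1 relative Lyl1 of -5.55. Gata1, the red cell factor that follows Gata2, stood at 82.2 ± 5.47 CPM in GMTT, 0.112 ± 0.128 in GPI and 137 ± 4.92 in Sham, with 5677, 4 and 8936 counts in these groups. The log2 ratio of Gata2 over Gata1 was -1.88 ± 0.0573 in GMTT, 7.69 ± 1.27 in GPI and -2.70 ± 0.0263 in Sham. A small constant was added to each count before the ratio was taken. Gata1 had 1, 3 and 0 counts in the GPI libraries, so the size of the GPI ratio depends on that constant. Cbfb, a partner of Runx1, had a log2 fold change of -0.34, and the Ets factors Fli1 and Erg had -1.26 and 0.49. Partners of Meis1 went separate ways, with Pbx3 at -2.68 and Hoxa9 at 1.48. Tcf12 and Erg turned to -0.92 and -0.60 with library sizes only.

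In GMTT against GPI all 12 partners were called again, 8 higher and 4 lower (10 and 0 with library sizes only, 1 and 11 scaled to pan-leukocyte genes). In GMTT against Sham 7 were called, 2 higher (among them Fli1 at 0.24) and 5 lower (Gata1 at -0.74, Tcf3 at -0.65, Pbx3 at -0.63, Ldb1 at -0.55 and Lyl1 at -0.48). Scaled to pan-leukocyte genes, none was higher and 7 were lower. Lmo2, the partner that joins Tal1 to Ldb1, had -0.11 here and did not pass (SE 0.05; edgeR, adjusted p = 0.0736).

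Of 24 other stem and progenitor genes, 9 were higher, 12 were lower and 3 did not pass in GPI against Sham, with a median log2 fold change of -0.32 (5 higher and 19 lower with library sizes only, 20 and 2 scaled to pan-leukocyte genes). The red cell and platelet factor Gfi1b had a log2 fold change of -10.04 and the myeloid factor Spi1 of -5.33. Msi2, an RNA-binding protein of stem cells, was higher at 2.03, and the surface protein Cd93 was higher at 0.75 but stood at -0.35 with library sizes only. The lymphocyte antigen Cd48 was lower at -1.72. In GMTT against GPI 12 were higher and 9 lower (18 and 3 with library sizes only, 2 and 21 scaled to pan-leukocyte genes). In GMTT against Sham 7 were higher and 7 lower (4 and 9 scaled to pan-leukocyte genes).

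Of 17 paralogues of the members, 15 were tested, and in GPI against Sham 6 were higher and 9 lower (4 and 11 with library sizes only, 12 and 2 scaled to pan-leukocyte genes). Podxl, a sialomucin relative of Cd34, had a pattern much like it, with 57.0 ± 1.10 CPM in GMTT, 186 ± 2.86 in GPI and 37.7 ± 2.08 in Sham. Mybl2, a relative of Myb that acts in dividing cells, had 112 ± 5.61 CPM in GMTT, 0.674 ± 0.166 in GPI and 182 ± 8.82 in Sham. Csf1r, the macrophage receptor related to Kit and Flt3, had 167 ± 7.15, 17.0 ± 0.662 and 119 ± 3.19 in those groups. In GMTT against GPI 8 paralogues were higher and 6 lower (11 and 3 with library sizes only, 2 and 13 scaled to pan-leukocyte genes), and in GMTT against Sham 6 were higher and 5 lower (6 and 7 scaled to pan-leukocyte genes).

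The members are expressed in several cell types, and the markers of some moved with them while others did not. Endothelial cells also express Cd34. Of 10 endothelial genes, 9 were higher and 1 lower in GPI against Sham (8 and 2 with library sizes only, 10 and 0 scaled to pan-leukocyte genes). Their summed level was 462 to 499 CPM in GMTT, 968 to 1007 in GPI and 369 to 391 in Sham. Within them, the junction gene Cdh5 had a log2 fold change of 3.16, Pecam1 of 1.80 and Vwf of -0.98. Cd34 over Pecam1 had a log2 ratio of -1.92 ± 0.0726 in GMTT, -1.71 ± 0.0306 in GPI and -2.29 ± 0.12 in Sham, without overlap between groups (exact permutation p = 0.1 for each pair, the smallest possible). Of 9 fibroblast and adipogenic progenitor genes, 8 were higher and 1 lower in GPI against Sham (5 and 4 with library sizes only, 8 and 0 scaled to pan-leukocyte genes), and their summed level was 9313 to 9894 CPM in GMTT, 9252 to 9763 in GPI and 5387 to 5787 in Sham. Muscle satellite cells express Cd34 too. All 6 satellite cell and myogenic genes were higher in GPI against Sham (median log2 fold change 6.03) and lower in GMTT against GPI (median -3.36), with a summed level of 14.2 to 14.9 CPM in GMTT, 81.2 to 87.1 in GPI and 7.23 to 8.05 in Sham, and Pax7 at 0 in Sham. The part of these cells in the Cd34 result was not tested.

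Red cell precursors also express Tal1. Of 12 erythroid genes, 11 were lower in GPI against Sham and Tfrc was higher at 0.22 (-0.87 with library sizes only). The summed erythroid level was 6606 to 6792 CPM in GMTT, 1778 to 1867 in GPI and 11702 to 11760 in Sham, and Tfrc, which many other tissues use for iron uptake, alone averaged 1788 CPM in GPI. The 6 megakaryocyte genes tested were all lower in GPI, at 791 to 845 CPM in GMTT, 6.45 to 8.23 in GPI and 833 to 885 in Sham, with Gp1bb at 0 in all groups. In GMTT against Sham all 12 erythroid genes were lower, as was Tal1, while 1 megakaryocyte gene was higher and 3 were lower (0 and 5 scaled to pan-leukocyte genes). The part of these cells in the Tal1 result was not tested.

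The 8 promyelocyte genes, such as Mpo and Elane, were all lower in GPI against Sham, at 1975 to 2195 CPM in GMTT, 2.71 to 5.29 in GPI and 1501 to 1649 in Sham. All 10 proliferation genes were lower too (7 lower and 3 higher scaled to pan-leukocyte genes), at 2514 to 2708 CPM in GMTT, 73.9 to 77.6 in GPI and 3609 to 3745 in Sham. In GMTT against Sham these lists parted: 6 of 8 promyelocyte genes were higher and none lower (6 and 2 scaled to pan-leukocyte genes), and all 10 proliferation genes were lower, beside a lower Myb. The 8 lymphoid progenitor genes, beside Flt3, were lower in GPI against Sham (6 lower and 2 higher scaled to pan-leukocyte genes), at 201 to 214 CPM in GMTT, 20.2 to 25.8 in GPI and 348 to 374 in Sham, with Vpreb1 at 0 in GPI. In GMTT against Sham 7 of the 8 were lower (all 8 scaled to pan-leukocyte genes), while Flt3 was higher. Of 6 dendritic cell genes, 3 were higher and 2 lower in GPI against Sham (1 and 3 with library sizes only, 4 and 1 scaled to pan-leukocyte genes). Mast cells also express Kit and Gata2. Of 8 mast cell and basophil genes, 7 were lower in GPI against Sham (7 higher scaled to pan-leukocyte genes), at 116 to 127 CPM in GMTT, 13.5 to 14.7 in GPI and 113 to 120 in Sham. The part of these cells in the results for Myb, Flt3, Kit and Gata2 was not tested.

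**Figure D4:**
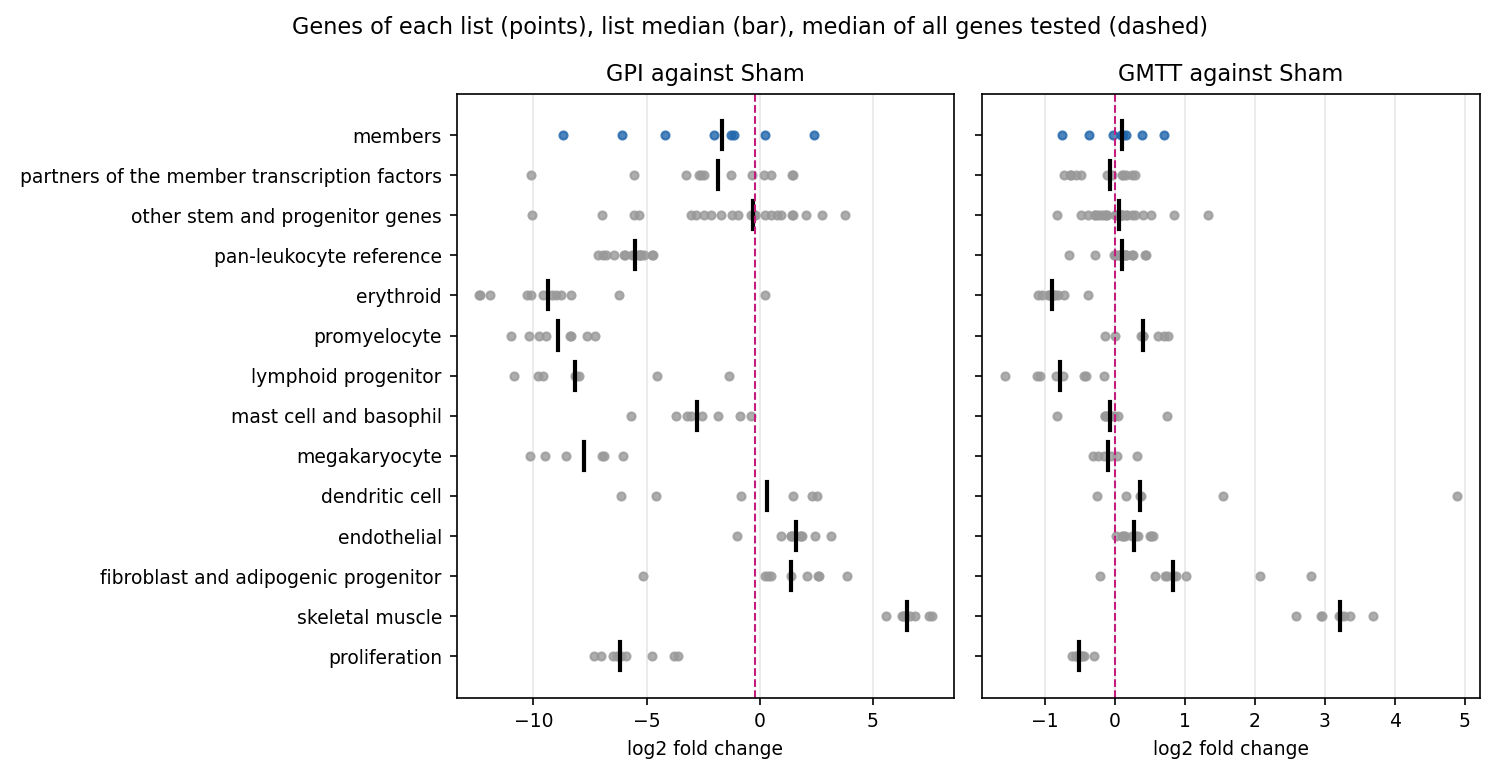
Log2 fold changes of the genes of each list (points) with the list median (bar) and the median of all genes tested (dashed), in GPI against Sham and GMTT against Sham with TMM scaling. The members spread from -8.68 to 2.39 in GPI against Sham, where the erythroid and promyelocyte lists have medians of -9.36 and -8.92 and the endothelial list one of 1.62. Scaled to pan-leukocyte genes, which is not drawn, 6 of the 8 members are higher in GPI against Sham. The medians are then 3.77 for the members and 5.22 for all genes.

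To find genes with a like pattern, log2(CPM + 0.5) centred per gene was compared over the 9 libraries among 12172 genes, by the root mean square (RMS) difference. The offset of 0.5 shrinks differences between genes with levels near 0 in GPI. Nearest to Cd34 were Podxl (RMS difference 0.0639), Akr1b1 (0.0771) and Zfhx3 (0.0775), and nearest to Kit were Bri3bp, Pgghg and Coro7 (0.0534 to 0.059). Nearest to Tal1 were Depdc1 (0.0866), the transferrin receptor gene Tfr2 (0.1) and the cyclin Ccna2 (0.103). Tfr2 averaged 0.173 CPM in GPI, and its small distance rests on the offset. Its log2 fold change in GPI against Sham was -8.02, beside -6.08 for Tal1. The offset also bears on the neighbours of Flt3 and Myb, which averaged 0.655 and 0.394 CPM in GPI. Flt3 lay nearest to Lat (0.165), Fmnl1 and Tbxas1, and Myb to Pou2af1 (0.123), Retnlg (0.255) and Nfe2 (0.256). The patterns of Gata2 and Meis1 were common, with 2252 and 1099 genes within an RMS difference of 0.25, beside 904 for Runx1, 575 for Kit, 553 for Cd34, 73 for Tal1, 11 for Flt3 and 1 for Myb. Gata2 lay nearest to Prmt7, Lman2 and Bicra, Meis1 to Slit2, Rel and Zfp597, and Runx1 to Arhgdia, Emilin1 and Hexd. Among the members themselves Runx1 and Meis1 were the closest pair (0.19), followed by Kit and Runx1 (0.317), and Cd34 and Myb were the farthest apart (4.43).

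Genomic neighbours were looked at after their values were seen. No gene in the table overlaps a member. Stil, which ends 13971 bases before Tal1 on the same strand, had 38.9 ± 0.996 CPM in GMTT, 0.843 ± 0.171 in GPI and 54.3 ± 1.28 in Sham. Its log2 fold change in GPI against Sham was -5.99 (SE 0.13; edgeR, adjusted p = 7.47e-29), beside -6.08 for Tal1. Plxna2, before Cd34, was higher in GPI than in Sham by 2.78 (SE 0.08; edgeR, adjusted p = 1.83e-25), while Cd46 on the other side was lower at -0.76 (SE 0.07; edgeR, adjusted p = 1.52e-11). Kdr, an endothelial receptor gene beside Kit, was higher in GPI at 1.39 (SE 0.06; edgeR, adjusted p = 3.92e-21), where Kit was lower. On both sides of Myb the differences were small in GPI against Sham with TMM scaling. They were -0.22 for Ahi1 (SE 0.09; edgeR, adjusted p = 0.0269) and 0.16 for Hbs1l (SE 0.05; edgeR, adjusted p = 0.00293). All values in this paragraph use TMM scaling. Other scalings, which shift the median of all genes between GPI and Sham, are not given for the neighbours.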

How the data were processed

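Poly(A) RNA of rat femurs was sequenced as strand-specific paired-end libraries, per the labels' protocols. The submitters' processing notes name the build mRatBN7.2. The authors deposited raw counts per gene and FPKM values. No aligner, counter or strand setting is given in the sources used here. Each FPKM the authors deposited was the count divided by gene length and by a library constant, 1.29 to 1.30 of the library total in GMTT, 0.598 to 0.608 in GPI and 1.31 to 1.32 in Sham, so they already carry a scaling between libraries. Rats per group were 3 by the labels, with nothing said of pooling, so p-values cover only the spread between these 9 libraries, which may be technical. Replicates differed by more than sampling noise (chi-square per degree of freedom 1.99 to 5.15).

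Counts were fitted in edgeR 4.0.16 (R 4.3.3; quasi-likelihood F test, robust, 2-sided) in 1 model of 9 libraries, with TMM scaling and filterByExpr (minimum count 10). Calls needed an adjusted p below 0.05, with Benjamini-Hochberg adjustment across the 15936 genes tested. Alternatives were other scalings, DESeq2 1.42.0, other filters, 6 libraries, a replicate block, limma 3.58.1 on log2(FPKM + 1) and log2(FPKM + 0.1), and leaving out each library. The fit was tested on simulated counts. Ratios to 16 pan-leukocyte genes were compared by exact permutation tests over libraries. The members and all lists were chosen with earlier results of these data known. Named were the 8 members, their tested ligands and partners, up to 4 genes by p and up to 4 by CPM of the other stem cell and paralogue lists, up to 3 by CPM of each cell type list, and the 3 nearest genes of each member among genes whose mean log2 CPM was 1 or more. Not every gene this rule takes in is reported here. Motifs were found by exact match in RefSeq promoter sequences. Figures were drawn with matplotlib 3.10.9.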

Additional observations from a re-analysis of the deposited data

How the results depend on the processing

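Of 24 member fold changes, all kept direction and side of the threshold with DESeq2, 6 libraries, no low-count filter, log2(FPKM + 1) and the replicate block. The labels' numbers did not pair the libraries (correlations of same-numbered deviations -0.498 to 0.186), and with the block 8 members were called in GPI against Sham, 7 in GMTT against GPI and 4 in GMTT against Sham, as without it. With library sizes only, Gata2 turned to -0.84 in GPI against Sham and 0.93 in GMTT against GPI. Scaled to pan-leukocyte genes, which moves the median of all genes, directions turned in GPI against Sham for Kit (3.41), Flt3 (1.22), Meis1 (4.28) and Runx1 (4.14), in GMTT against GPI for Kit (-3.61), Flt3 (-0.99), Meis1 (-4.33), Tal1 (-0.26) and Runx1 (-4.14), and in GMTT against Sham for Gata2 (-0.0758), Meis1 (-0.0474) and Runx1 (-0.0034). In GMTT against Sham, where Kit had no call with TMM, its value was -0.19 scaled to pan-leukocyte genes (called), 0.0012 with median-of-ratios scaling and -0.0631 to 0.00933 when 1 library was left out. Calls were also gained with median-of-ratios scaling for Gata2 in GMTT against GPI (-0.19) and Runx1 in GMTT against Sham (0.19), and Flt3 lost its call in GMTT against Sham scaled to pan-leukocyte genes (0.23). On log2(FPKM + 0.1) 2 members were called in GMTT against Sham, with Flt3 (0.41; limma, adjusted p = 0.243) and Myb (-0.34; limma, adjusted p = 0.079) lost. On log2(FPKM + 1) without a filter, 34.8% of all genes were called in that comparison. With Ptprc alone as the leukocyte gene, 1 member stood higher in GMTT than in Sham without overlap, and with all 16 genes 2 did. The share of all genes doing so is not given. Leaving out 1 library gave 7 to 8, 7 to 8 and 4 to 5 members called in the 3 comparisons. The shares of all genes called were then 85.9% to 88.3%, 83.3% to 85.9% and 51.7% to 57.5%. With the replicate block and on log2(FPKM + 0.1), the shares of all genes called stayed within 1.5-fold of the main fit. The causes were not tested. Among called genes, 45.5% were higher in GPI than in Sham with TMM, 23.9% with library sizes only and 96.9% scaled to pan-leukocyte genes. Depth limits Flt3 and Myb in GPI, where 23 and 13 counts lie behind the group values.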
